A study of Mus musculus with 12 samples.

Results

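*Ncam1*, the gene deleted in the KO mice, lies on mouse chromosome 9, and 93 of the 48526 genes counted were taken as its expressed neighbours. A gene was a member when it overlapped the stretch from 39502136 to 59798925 of chromosome 9 (GRCm38), which reaches 10 Mb beyond each end of *Ncam1*, and when its mean level over the 12 libraries was above 1 CPM (counts scaled to a common library total over all genes). Of 385 annotated genes in that stretch, 249 had a count in some library and 103 passed the cut on CPM. Of those, 10 were left out by name, namely *Sln* and channel, receptor, chaperone, ribosomal or respiratory chain genes. Position and mean CPM thus chose the members, and neither is a result. Just inside the cut stood *Tmprss13*, *Slc37a4*, *Fam219b* and *Alg9* at 1.03, 1.04, 1.06 and 1.08 CPM, and just outside it *Gm16536*, *Ppcdc*, *Pcsk7* and *Nlrx1* at 0.956, 0.953, 0.941 and 0.812 CPM. Of the members, 90 were protein-coding, 38 lay on the side of lower coordinates and 55 on the side of higher coordinates, and their median level was 4.32 CPM.

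PCs (Purkinje cells, the distal cells of the ventricular conduction system) and VMs (working ventricular myocytes) were sorted from dissociated adult ventricles of mice with (WT) or without (KO) *Ncam-1*, giving 3 libraries for each of WT PC, KO PC, WT VM and KO VM. Mice of all 4 groups carried the *Cntn2*-EGFP BAC reporter, whose GFP separated PCs from VMs, and all cells had been stained with 50 nM TMRM, a mitochondrial dye that marks cardiomyocytes. The KO line was kept on C57BL/6 and the reporter line on CD1 before the 2 lines were crossed. The deletion is constitutive, so VMs carry it as well, although they held little *Ncam1* RNA.

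Genes on one chromosome are inherited together unless recombination parts them, and the closer a gene lies to a deleted locus, the more often its allele travels with the deletion. In mice of mixed background, KO and WT animals can therefore differ in strain alleles around the target as well as at the target. Linked alleles are present in each cell type of an animal, which is why PCs and VMs were set side by side for each member. In these data the loss of *Ncam1* and any linked alleles of another strain cannot be told apart.

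Between 13883427 and 42505705 read pairs were counted on genes per library, of which 1532393 to 6761356 fell outside the mitochondrial genome, and the members took 0.846% to 0.977% of the latter. *Ncam1* had 0, 1 and 1 counts in KO PCs against 83, 34 and 116 in WT PCs, and 0, 0 and 0 in KO VMs against 6, 0 and 9 in WT VMs. Replicate 2 of WT PCs stood apart, with 63.9% of its pairs not aligned against 18.8% to 24.7% elsewhere. It was the highest or the lowest of the 12 libraries for 66.7% of the members, and for 66.6% of all genes above 1 CPM. For the PC results that it moved most, the values without it stand beside those with it. The summed level of 6 cardiomyocyte markers was 141108 to 191344 normalized counts over the 12 libraries. The sum of 6 Purkinje markers was 292 to 1480 in KO PCs, 911 to 3112 in WT PCs and 74.4 to 115 in VMs. The 6 smooth muscle and pericyte markers summed to 249 to 688 in KO VMs and 472 to 962 in WT VMs, and the part of the Purkinje and smooth muscle markers in the differences described here was not tested. The labels do not say which libraries came from the same hearts, so p-values measure the spread between libraries, which may be partly technical.

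The genotype difference near *Ncam1* was held by few genes. In both cell types *Plet1os*, *Pts* and *Dixdc1* were lower and *Tmprss13* was higher in KO. *Plet1os* is annotated as an antisense RNA to *Plet1*. *Pts* encodes 6-pyruvoyl-tetrahydropterin synthase, an enzyme of tetrahydrobiopterin synthesis. *Dixdc1* encodes a DIX-domain protein that acts in Wnt signalling, and *Tmprss13* a type II transmembrane serine protease. The other 89 members had log2 fold changes (KO over WT) from -2.05 to 0.94 in PCs and from -0.70 to 1.05 in VMs. Since bulk RNA of sorted cells was counted, fewer cells of a type and less RNA per cell cannot be told apart.

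The 3 genes that were lower in both cell types are transcribed from the minus strand and lie on the side of higher coordinates, within 0.251 Mb of each other. *Plet1os* spans 50488795 to 50507823, *Pts* 50521617 to 50528724 and *Dixdc1* 50662752 to 50739517 of chromosome 9. Their distances from the near end of *Ncam1* are 0.690, 0.723 and 0.864 Mb. The 250 bases before their starts are shown because these members moved together, as RefSeq places the starts on GRCm38.p6, with a CCAAT box (CCAAT) or a GC box (GGGCGG), on either strand, in capitals. All 4 windows are on the minus strand and are written 5′ to 3′ along it, namely chr9:50504806-50505055 for *Plet1os*, chr9:50528657-50528906 for *Pts*, and chr9:50737736-50737985 and chr9:50727985-50728234 for the upstream and the downstream start of *Dixdc1*.
Plet1os: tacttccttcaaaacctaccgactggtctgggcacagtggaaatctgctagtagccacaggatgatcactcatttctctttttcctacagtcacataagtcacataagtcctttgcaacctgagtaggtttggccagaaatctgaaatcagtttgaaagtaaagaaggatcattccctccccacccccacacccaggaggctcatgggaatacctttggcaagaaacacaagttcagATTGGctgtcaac
Pts: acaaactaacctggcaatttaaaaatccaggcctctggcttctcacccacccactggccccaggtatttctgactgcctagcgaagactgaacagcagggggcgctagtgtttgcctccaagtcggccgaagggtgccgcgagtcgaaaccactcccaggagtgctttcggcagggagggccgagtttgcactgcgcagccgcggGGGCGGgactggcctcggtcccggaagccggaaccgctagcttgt
Dixdc1 upstream start: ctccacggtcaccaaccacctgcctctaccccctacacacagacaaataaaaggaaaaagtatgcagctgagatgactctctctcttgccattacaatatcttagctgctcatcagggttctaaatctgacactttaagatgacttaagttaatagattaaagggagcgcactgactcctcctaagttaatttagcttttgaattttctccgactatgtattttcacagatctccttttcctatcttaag
Dixdc1 downstream start: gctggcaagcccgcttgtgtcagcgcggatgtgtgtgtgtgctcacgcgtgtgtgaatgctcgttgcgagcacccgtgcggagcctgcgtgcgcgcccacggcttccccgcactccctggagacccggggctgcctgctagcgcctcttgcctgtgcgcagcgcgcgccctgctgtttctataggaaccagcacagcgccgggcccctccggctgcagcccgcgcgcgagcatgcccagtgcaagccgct

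The windows had little in common. The *Plet1os* window held 45.6% G or C, 1 CG dinucleotide and 1 CCAAT box, in reverse orientation. The *Pts* window held 61.6% G or C, 17 CG dinucleotides and 1 GC box. The upstream *Dixdc1* window had 40% G or C and 3 CG dinucleotides, and the downstream one 70.0% and 28. Neither *Dixdc1* window held a CCAAT or GC box, and none of the 4 held TATAAA. Over 32851 windows of the same length before RefSeq starts the medians were 52.4% G or C and 6 CG dinucleotides, and 33.8% held CCAAT, 32.7% GGGCGG and 12.4% TATAAA on either strand. A match describes the letters of a window and is not a binding site. RefSeq windows were found for 71 of the 93 members, *Tmprss13* not among them.

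*Plet1os* was nearly absent from KO cells. It had 0, 0 and 0 counts in KO PCs and 155, 266 and 195 in WT PCs, which are 67.6, 519 and 113 normalized counts. In VMs it had 0, 0 and 2 counts in KO and 116, 92 and 150 in WT, which are 109, 86.6 and 111 normalized counts. All WT libraries lay far above all KO libraries, and the highest WT value was that of the library that stood apart. Against a floor of 3 counts in each KO library, which covers counting error only, the level of *Plet1os* in KO was at least 63.2-fold lower in PCs and at least 26.5-fold lower in VMs. Without replicate 2 of WT PCs the bound in PCs was 24.4-fold. In VMs it ranked 1 of the 10737 genes tested, with an adjusted p of 3.54e-06 in the edgeR quasi-likelihood test after Benjamini-Hochberg correction, with a range over the alternatives from 4.67e-34 to 0.0705. In PCs it ranked 2 of 11754 and did not pass, with an adjusted p of 0.490 in the same edgeR test, but passed at 0.000557 once the library that stood apart was removed, with a range over the alternatives from 8.08e-33 to 0.9998. The exons of *Plet1os* overlap those of *Plet1* on the other strand, which had at most 6 counts in a library.

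*Pts* was lower in KO in both cell types, more cleanly in PCs. Its normalized counts were 10.5, 29.04 and 14.0 in KO PCs against 56.7, 87.8 and 66.5 in WT PCs. In VMs they were 33.9, 25.7 and 45.2 in KO against 41.3, 85.6 and 154 in WT. The groups did not overlap in PCs, whereas in VMs the highest KO library exceeded the lowest WT library. The log2 fold change was -1.95 (SE 0.53, unadjusted p = 0.00418) in PCs and -1.44 (SE 0.39, unadjusted p = 0.0017) in VMs, and neither passed the adjustment in edgeR's test (adjusted p = 0.993 and 0.628). Without replicate 2 of WT PCs the change in PCs was -1.78.

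*Dixdc1* showed the reverse arrangement, with overlap in PCs and none in VMs. It had 28.1, 10.1 and 34.1 normalized counts in KO PCs and 29.2, 103 and 105 in WT PCs. In VMs the values were 12.7, 11.6 and 17.4 in KO and 32.8, 74.4 and 115 in WT. Replicate 1 was the lowest WT library in each cell type. The log2 fold change was -1.68 (SE 0.63, unadjusted p = 0.0233) in PCs, -1.45 without replicate 2 of WT PCs, and -2.42 (SE 0.43, unadjusted p = 2.8e-05) in VMs, where the adjusted p was 0.0600 in edgeR's test (over the alternatives, 9.15e-09 to 1).

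*Tmprss13* was the only member higher in KO at an unadjusted p under 0.05 in both cell types in edgeR's test. It lies from 45319100 to 45347581 on the plus strand, 4.15 Mb from *Ncam1* on the side of lower coordinates. It had 18, 25 and 61 counts in KO PCs against 3, 2 and 5 in WT PCs, or 31.6, 31.6 and 40.8 against 1.31, 3.90 and 2.89 normalized counts. In VMs it had 31, 37 and 32 counts in KO against 6, 5 and 2 in WT, or 43.8, 47.5 and 37.05 against 5.63, 4.71 and 1.48 normalized counts. KO libraries of both cell types held similar levels, and all of them exceeded all WT libraries. The log2 fold change was 3.78 (SE 0.75) in PCs, rank 4, and 3.45 (SE 0.47) in VMs, rank 3. In the edgeR quasi-likelihood test after Benjamini-Hochberg correction the adjusted p was 0.993 in PCs (over the alternatives, 0.00533 to 0.9998) and 0.00464 in VMs (over the alternatives, 1.44e-08 to 0.0705). Without replicate 2 of WT PCs the change in PCs was 4.03 with an adjusted p of 0.103 in edgeR's test.

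**Figure D1:**
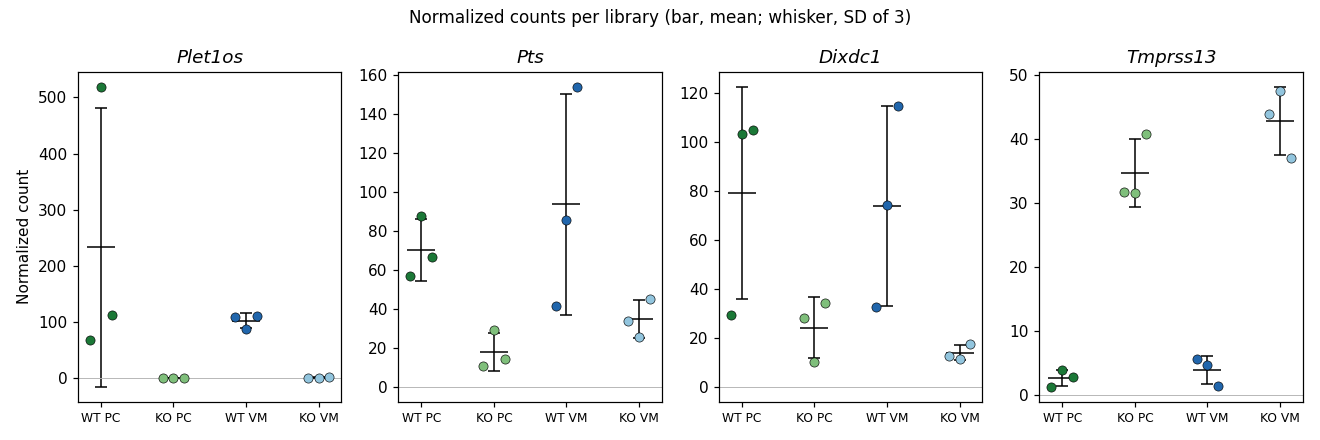
Normalized counts of *Plet1os*, *Pts*, *Dixdc1* and *Tmprss13* in each library (points), by group, with the mean (long bar) and SD of 3 libraries (whiskers). *Plet1os* is at or near 0 in all 6 KO libraries, *Tmprss13* is at 31.6 or more in KO libraries and at 5.63 or less in WT libraries, and *Pts* and *Dixdc1* have wide WT groups.

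All 4 of these genes had a mean level over the 12 libraries below the member median of 4.32 CPM. It was 3.28 CPM for *Plet1os*, 2.45 for *Pts*, 2.22 for *Dixdc1* and 1.03 for *Tmprss13*, with the genotype of low level included. They were among the 14 members whose mean level was not above 1 CPM in every group, *Plet1os*, *Pts* and *Dixdc1* because of KO and *Tmprss13* because of WT. Such a gene entered the list through the group in which it was high, so its difference is partly built into the choice. Among the 79 members above 1 CPM in every group, 0 had an unadjusted p under 0.05 in PCs and 6 in VMs in edgeR's test. Over all genes tested whose mean over the 12 libraries was above 1 CPM, the shares were 2.76% in PCs and 5.54% in VMs. Those genes were not cut by group as the 79 members were, so the 2 sets are not matched. *Plet1os* and *Tmprss13* passed the adjustment in VMs and in the average over both cell types, out of 4 and 3 genes that passed among all genes tested.

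**Figure D2:**
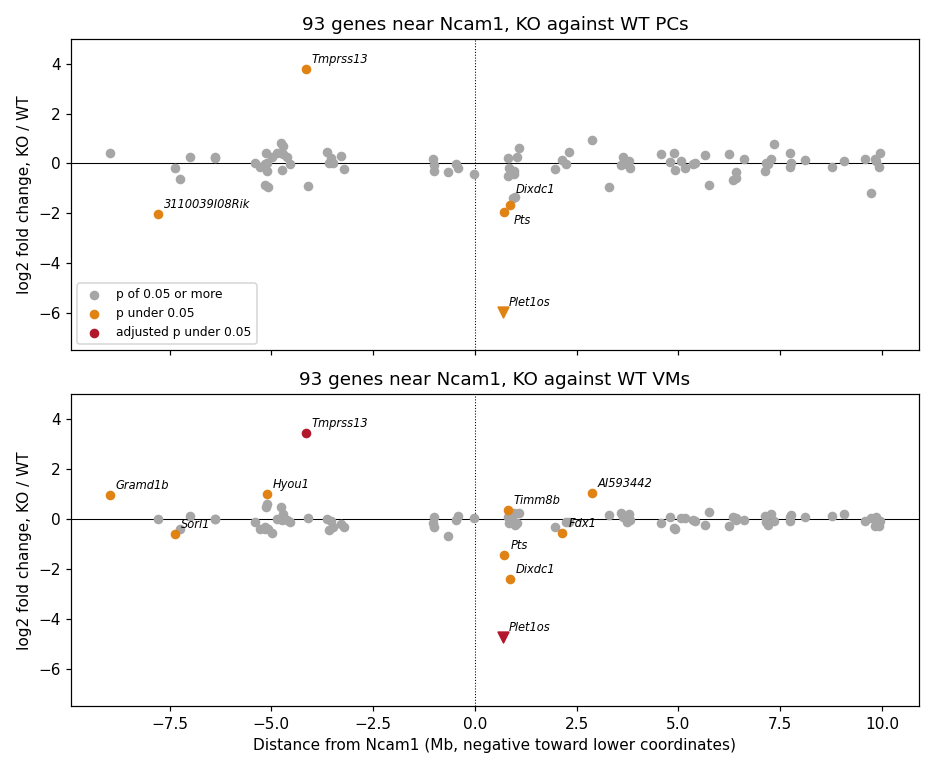
Log2 fold change of each member (KO over WT) against its distance from the near end of *Ncam1* in Mb, in PCs (top) and VMs (bottom). Colours mark the unadjusted and adjusted p of edgeR's test, and the triangle is the bound for *Plet1os*, computed against 3 counts per KO library, with -5.98 in PCs (-4.61 without replicate 2 of WT PCs, not drawn) and -4.73 in VMs.

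In PCs, 5 of the 93 members had an unadjusted p under 0.05 in edgeR's quasi-likelihood test, against 3.22% of all 11754 genes tested. Lower in KO were 4 of the 5, against 2.7% of all genes, and higher 1, against 0.519%. The former were *Plet1os*, *Pts*, *Dixdc1* and *3110039I08Rik*, and the latter was *Tmprss13*. The number of members that passed the Benjamini-Hochberg adjustment was 0 in edgeR, as it was for all genes. It was 0 in limma voom with sample quality weights and 2 in DESeq2, *Plet1os* and *Tmprss13*. The groups did not overlap for 12 members, against 9.52% of all genes tested, with 7 lower in KO (4.7% of all genes) and 5 higher (4.82%). In an exact permutation test 3 libraries against 3 cannot give a p below 0.1. The median log2 fold change was -0.0020 over the members and -0.0023 over all genes tested, with 47 members below 0 and 46 above. Leaving out replicate 2 of WT PCs gave 8 members at an unadjusted p under 0.05, 5 of them lower, with 1, *Plet1os*, past the adjustment. The shares of all genes called by DESeq2, by voom and without replicate 2 of WT PCs are not given here, so those counts are not read as a trait of the members.

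*3110039I08Rik*, a processed transcript 7.79 Mb from *Ncam1*, rested on that library. It had 17.6, 12.6 and 32.7 normalized counts in KO PCs and 27.9, 207 and 45.1 in WT PCs. The high value was that of replicate 2, and the groups overlapped. The log2 fold change was -2.05 (SE 0.76, unadjusted p = 0.0225), and -0.75 without replicate 2 of WT PCs (unadjusted p = 0.168). In VMs it was 0.01 (SE 0.62).

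The remaining members with the smallest p-values in PCs were *Peak1*, *Trappc4* and *Ddx10*, of which none reached 0.05. *Peak1*, which encodes a pseudokinase of the cytoskeleton, had 297, 323 and 374 normalized counts in KO PCs and 394, 653 and 444 in WT PCs, with no overlap. *Trappc4*, a subunit of the TRAPP vesicle tethering complex, had 22.9, 46.7 and 25.4 in KO PCs and 47.1, 74.1 and 62.4 in WT PCs. *Ddx10*, a DEAD-box RNA helicase, had 70.3, 61.9 and 52.1 in KO PCs and 61.9, 222 and 80.3 in WT PCs. *Peak1* and *Trappc4* thus separated by genotype, whereas *Ddx10* overlapped and was high in replicate 2 of WT PCs. The log2 fold changes were -0.57 (unadjusted p = 0.055) for *Peak1*, -0.93 (unadjusted p = 0.0794) for *Trappc4* and -0.95 (unadjusted p = 0.082) for *Ddx10*, and -0.34, -0.80 and -0.23 without that library. In VMs *Trappc4* had 52.3, 60.4 and 46.3 normalized counts in KO and 61.9, 83.8 and 65.1 in WT, again without overlap. Averaged over both cell types its change was -0.67 (SE 0.25, unadjusted p = 0.0156, adjusted p = 0.925 in edgeR's test). Exons of *Trappc4* overlap those of *Rps25* on the other strand, which had up to 980 counts in a library, and whether counting used the strand is not stated in the sources used here. Such exon overlap with another gene was found for 31 of the 93 members, and for 18 of them the other gene had over 10 counts in some library.

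In VMs, 10 members had an unadjusted p under 0.05 in edgeR's test, against 5.12% of all 10737 genes tested, with 5 lower in KO (3.25% of all genes) and 5 higher (1.87%). Those that passed the adjustment were *Plet1os* and *Tmprss13*, against 0.0373% of all genes, that is 4 genes. The groups did not overlap for 11 members, against 9.63% of all genes, with 6 lower in KO (5.03%) and 5 higher (4.6%). The median was -0.04 over the members and -0.02 over all genes tested. Beside the 4 genes described above, *Hyou1*, *Gramd1b*, *Timm8b* and *AI593442* were higher and *Fdx1* and *Sorl1* were lower, none of them past the adjustment in edgeR's test (adjusted p from 0.664 to 0.931).

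Of the genes higher in KO VMs, *Hyou1* encodes a chaperone of the endoplasmic reticulum and *Gramd1b* a sterol transfer protein. *Hyou1* had 160, 75.8 and 82.2 normalized counts in KO VMs and 58.1, 54.6 and 44.4 in WT VMs. *Gramd1b* had 127, 189 and 140 in KO VMs and 42.2, 96.0 and 95.4 in WT VMs. For both genes all KO VM libraries exceeded all WT VM libraries, and for *Hyou1* replicate 1 was the highest by far. The log2 fold changes were 1.01 (SE 0.28, unadjusted p = 0.00214) for *Hyou1* and 0.95 (SE 0.27, unadjusted p = 0.00273) for *Gramd1b*, and in PCs -0.29 (SE 0.50) and 0.43 (SE 0.46). *AI593442*, named after its values were seen, had 90.5, 34.7 and 30.1 in KO VMs and 17.8, 15.1 and 39.2 in WT VMs, which overlap.

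Of the genes lower in KO VMs, *Fdx1* encodes ferredoxin 1, an electron carrier of mitochondria, and *Sorl1* a sorting receptor. *Fdx1* had 246, 446 and 280 normalized counts in KO VMs and 501, 489 and 444.5 in WT VMs. *Sorl1* had 120, 132 and 122 in KO VMs and 207, 117 and 237 in WT VMs. Both overlapped between genotypes by 1 library, replicate 2 of KO VMs for *Fdx1* and replicate 2 of WT VMs for *Sorl1*. The log2 fold changes were -0.57 (SE 0.19, unadjusted p = 0.00849) and -0.60 (SE 0.23, unadjusted p = 0.0189), and in PCs 0.14 (SE 0.26) and -0.18 (SE 0.54).

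In both PCs and VMs, 4 members had an unadjusted p under 0.05 in the same direction, against 0.284% of the 10555 genes tested in both. All 4 were among the 14 members not above 1 CPM in every group. This count and the correlations over all members are thus partly built into the choice. With groups that did not overlap in either cell type and the same direction there were 3 members, *Plet1os* and *Trappc4* lower and *Tmprss13* higher, against 0.654% of genes. The direction in PCs and in VMs was the same for 49 of the 93 members (52.7%), and for 52.3% of all genes tested in both. Leaving out the 4 members above, it was the same for 45 of 89 (50.6%). Across members the fold changes in PCs and VMs had a Pearson correlation of 0.876 and a Spearman correlation of 0.212, and without the 4 members 0.17 and 0.10. The high Pearson value thus came with the 4 members. Genes are not independent replicates, and the PC and VM libraries may share hearts.

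**Figure D3:**
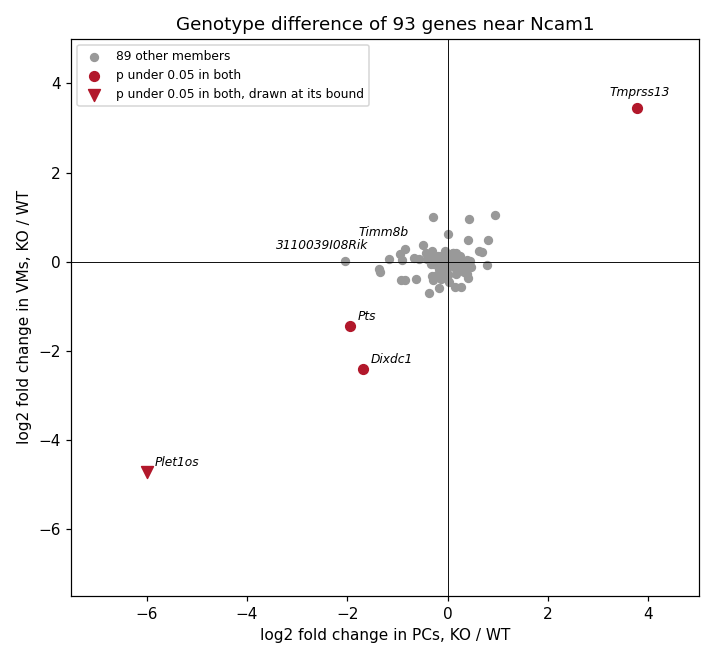
Log2 fold change (KO over WT) in PCs (x axis) against that in VMs (y axis) for the 93 members, with the 4 at an unadjusted p under 0.05 in both in red and *Plet1os* at its bound. The other 89 members (grey) lie around the origin, from -2.05 to 0.94 along x and from -0.70 to 1.05 along y.

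Averaged over PCs and VMs in a fit of all 12 libraries, 9 members had an unadjusted p under 0.05, against 4.74% of 11323 genes tested, with 5 lower in KO (3.16% of all genes) and 4 higher (1.58%). That fit treated PC and VM libraries as independent, although they may share hearts. *Plet1os* (rank 2, adjusted p = 0.000461) and *Tmprss13* (rank 3, adjusted p = 0.000721) passed the adjustment in edgeR's test, against 0.0265% of all genes, that is 3 genes, and both passed it in all alternatives run for this comparison. *Pts* was lower by -1.68 (SE 0.34) and *Dixdc1* by -2.04 (SE 0.41), ranks 7 and 8, with an adjusted p of 0.197 for each in edgeR's test. *Trappc4*, *Gramd1b* (0.69, SE 0.29), *Phldb1* (0.64, SE 0.28) and *AI593442* (1.03, SE 0.45) were also at an unadjusted p under 0.05, and *Phldb1* and *AI593442* fall outside the rule for named genes and were picked after their values were seen.

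When the genotype effect in PCs was tested directly against that in VMs, the test called 0 members after adjustment in edgeR, DESeq2 and limma voom. At an unadjusted p under 0.05 there were 4 members in edgeR's test, against 2.9% of all genes. The 4 were *Timm8b*, *Etfa*, *Peak1* and *Fdx1*, with differences (PC effect minus VM effect, log2) of -0.88, 0.55, -0.63 and 0.70. Members at such a p numbered 6 in DESeq2, 3 in limma voom and 2 in edgeR without replicate 2 of WT PCs. The shares of all genes in those fits are not given here, so these counts are not read as a trait of the members. *Timm8b* was the one member whose genotypes did not overlap in either cell type and differed in opposite directions, against 0.322% of genes tested in both.

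Members were also described by their distance from *Ncam1*. Among the 23 members closer than 2.5 Mb to *Ncam1*, 3 had an unadjusted p under 0.05 in PCs and 5 in VMs. Among the 27 at 2.5 to 5 Mb there were 1 and 2, and among the 43 at 5 to 10 Mb 1 and 3. *Plet1os*, *Pts* and *Dixdc1* were the 3 in PCs in the nearest class and were among the 5 in VMs. *Tmprss13* was counted at 2.5 to 5 Mb in both cell types. Since the differences of these genes are partly built into the choice of members, so are the counts by distance. Of all genes tested, 3.22% in PCs and 5.12% in VMs were at such a p. The medians of the log2 fold change from the nearest to the farthest class were -0.21, 0.24 and 0.01 in PCs and -0.15, -0.03 and -0.02 in VMs. Without replicate 2 of WT PCs the medians in PCs were -0.038, -0.033 and -0.047, close to each other, and 4, 2 and 2 members were at an unadjusted p under 0.05. The share of all genes in that fit is not given here. Within 1 Mb, a distance chosen after values were seen, 13 of 14 members were below 0 in PCs (median -0.42) and 8 of 14 in VMs (median -0.09). Without replicate 2 of WT PCs the former were 9 of 14 (median -0.08). The size of the change (absolute log2 fold change) had a Pearson correlation across members with distance of -0.19 in PCs and -0.22 in VMs, and -0.030 and -0.067 without the 4 members above. The 28 members at 5 to 10 Mb on the side of higher coordinates included 0 at an unadjusted p under 0.05 in PCs, in VMs or in the average in edgeR's test. On chromosome 9 outside the stretch, 13 of 358 genes above 1 CPM had an unadjusted p under 0.05 in PCs (3.63%) and 24 of 355 in VMs (6.76%).

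The nearest members are described by side. On the side of lower coordinates *Ttc12*, *Zw10* and *Usp28* are the nearest, at 0.0159, 0.423 and 0.460 Mb. *Ttc12*, which encodes a protein needed for assembly of ciliary dynein arms, had 89.6, 123 and 119 normalized counts in KO PCs and 141, 123 and 176 in WT PCs. Its log2 fold change was -0.41 (approximate 95% interval -1.02 to 0.20) in PCs and 0.05 (-0.36 to 0.46) in VMs. *Usp28*, a deubiquitinase, had 492 to 548 in KO PCs and 515 to 566 in WT PCs, with -0.02 (-0.44 to 0.40) in PCs and -0.03 (-0.29 to 0.24) in VMs. *Zw10*, of the kinetochore, had -0.20 (-1.28 to 0.87) and 0.12 (-0.55 to 0.79). None of the 3 differed by an unadjusted p under 0.05, and the interval for *Usp28* was the narrowest. On the side of higher coordinates the nearest 3 were *Plet1os*, *Pts* and *Timm8b*.

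The genes between the 3 lower ones had smaller differences. Between *Pts* and *Dixdc1* lie *Timm8b*, *Nkapd1* and *Dlat*, in that order. *Dlat*, the E2 subunit of pyruvate dehydrogenase and one of the most abundant members, had 1283, 1789 and 1417 normalized counts in KO PCs and 1534, 2267 and 1270 in WT PCs. In VMs it had 1854, 1904 and 1789 in KO and 1624, 2113 and 2424 in WT. The groups overlapped in both cell types, and the log2 fold changes were -0.17 (SE 0.26), 0.08 without replicate 2 of WT PCs, and -0.16 (SE 0.15). *Dlat* and *Dixdc1* are on the same strand, with 2.97 kb between them. *Nkapd1* changed by 0.23 (SE 0.44) in PCs and 0.07 (SE 0.28) in VMs, and its exons overlap those of *Timm8b* and *Pih1d2*. *Alg9*, a mannosyltransferase of the endoplasmic reticulum 0.976 Mb from *Ncam1*, changed by -1.35 (SE 0.79, unadjusted p = 0.117) in PCs and -0.22 (SE 0.43) in VMs, with 87.8 normalized counts in replicate 2 of WT PCs against 22.2 and 16.2 in the others, and by -0.33 in PCs without that library.

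**Figure D4:**
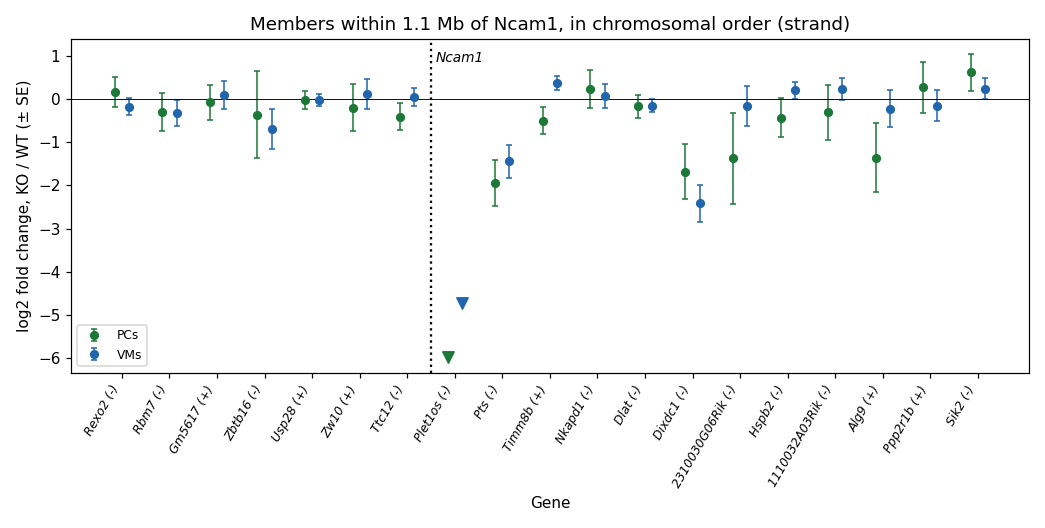
Log2 fold change (KO over WT, y axis, ± SE) in PCs (green) and VMs (blue) of the members within 1.1 Mb of *Ncam1*, in chromosomal order, with the strand of each gene. The dotted line is the position of *Ncam1*, the triangles are the bounds for *Plet1os*, and *Timm8b*, *Nkapd1* and *Dlat* stand between *Pts* and *Dixdc1* with changes from -0.50 to 0.37.

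The members were also grouped by function. For the counts that follow, 2.7% of all genes tested in PCs were lower in KO at an unadjusted p under 0.05 and 0.519% higher, and in VMs 3.25% were lower and 1.87% higher. Of 11 members in energy metabolism and mitochondria, 1 was lower in PCs at an unadjusted p under 0.05 (*Pts*), and in VMs 2 were lower (*Pts*, *Fdx1*) and 1 higher (*Timm8b*), and the median was 0.06 in PCs and -0.16 in VMs. Its abundant members *Etfa*, *Acat1* and *Idh3a*, of fatty acid oxidation, ketone body metabolism and the citric acid cycle, changed by 0.33, 0.11 and 0.06 in PCs and by -0.23, 0.19 and 0.09 in VMs, none at an unadjusted p under 0.05. Of 16 members of the secretory pathway and lysosome, 0 were called in PCs, and *Sorl1* was lower and *Hyou1* higher in VMs (medians -0.15 and 0.03). Of 6 members in adhesion, matrix and membrane, *Dixdc1* was lower in both cell types. The 10 ubiquitin and proteasome genes, the 16 chromatin, transcription and RNA genes, the 9 kinase, phosphatase and GTPase regulators and the 2 chaperones included 0 at an unadjusted p under 0.05 in PCs or VMs in edgeR's test. The ubiquitin genes had the narrowest range, -0.18 to 0.03 in PCs and -0.46 to 0.06 in VMs, with *Cul5*, a cullin scaffold, at -0.18 and -0.04. The 23 members on no list held *Plet1os*, *Tmprss13*, *Gramd1b*, *AI593442* and *3110039I08Rik*.

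Of the genes left out by name, *Scn4b* and *Drd2* share the stretch. *Scn4b*, a sodium channel beta subunit, had 21.1, 15.2 and 11.4 normalized counts in KO PCs and 104, 64.4 and 101 in WT PCs, and 11.3, 24.4 and 30.1 in KO VMs against 173, 125 and 227 in WT VMs. It lies 165 kb from *Tmprss13*, which changed the other way in both cell types. The log2 fold change of *Scn4b* was -2.54 (SE 0.47) in PCs and -2.98 (SE 0.31) in VMs, where it was the third gene of the stretch past the adjustment in edgeR's test (adjusted p = 0.000155). The stretch held 138 of the 10737 genes tested in VMs (1.29%) and 3 of the 4 genes past the adjustment there, and all 3 past it in the average over both cell types. The stretch was chosen with earlier results of these data known. With all 12 libraries in the fit, *Plet1os* and *Tmprss13* did not pass in VMs (adjusted p of 0.0705 for both in edgeR's test). *Drd2*, the dopamine D2 receptor gene 0.0940 Mb from *Ncam1*, had 5.27, 30.3 and 87.5 in KO PCs and 99.4, 150 and 344 in WT PCs, and 3 or fewer counts in every VM library.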

How the data were processed

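Counts of read pairs per gene were deposited by the authors, 1 file per library, raw and without normalization, from 50 bp paired-end reads aligned to mm10 with STAR 2.5.0c and counted with HTSeq 0.6.0 on the GRCm38.74 annotation. The classes that HTSeq assigned to no gene, 45.7% of all pairs, were left out. Positions came from GENCODE M21 on GRCm38, which lacks 468 of the gene identifiers, holding 0.00659% of the counts. Groups followed the genotype, cell type and number in the sample titles. CPM was computed over all counts on genes.

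Normalized counts are TMM-scaled counts over all 12 libraries. Genes with a mean normalized count above 5 were tested with edgeR 4.0.16 (R 4.3.3), quasi-likelihood fit and test, two-sided, p-values adjusted by Benjamini-Hochberg across the genes tested, and a threshold of 0.05. KO and WT were compared in PCs and in VMs (6 libraries each), and averaged and differenced over PCs and VMs (12 libraries). Two-sided exact permutation tests took log2(normalized count + 2). The steps were tested on simulated data. A library with 3 or fewer counts of a gene was taken as at the floor. The depth outside the mitochondrial genome (1532393 to 6761356 counts) limits what can be detected for weak genes.

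Members, lists, tests and the rule for named genes were chosen with earlier results of these data known. Named are members that passed the adjustment, the 8 with the smallest p in PCs and the 8 in VMs, and the 3 nearest *Ncam1* on each side. Function lists were written from memory; 10 leukocyte genes listed near *Ncam1* included no member. Marker lists cover endothelial cells (sums of 418 to 1332 normalized counts in KO PCs, 569 to 699 in WT PCs, 58.0 to 263 in KO VMs, 231 to 450 in WT VMs), fibroblasts (654 to 963, 705 to 1672, 65.1 to 317, 217 to 384) and leukocytes (236 to 268, 249 to 591, 9.90 to 70.6, 48.8 to 131), in the same order, with *Cd3e* at 0 in KO PCs and with *Cd3e* and *Adgre1* at 0 in KO VMs. Alternatives used DESeq2 1.42.0, limma 3.58.1 (voom with sample quality weights) and other filters and scalings. Others used thinned counts, a replicate block and the omission of each library. Reads were not aligned again. The values of 1 member are not reported here.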

Additional observations from a re-analysis of the deposited data

Results flagged for a closer look

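*Timm8b*, which encodes a chaperone of protein import into mitochondria, had genotype groups that did not overlap in either cell type, lower in KO PCs and higher in KO VMs. It had 293, 324 and 335 normalized counts in KO PCs against 339, 681 and 344 in WT PCs, and 454, 369 and 519 in KO VMs against 347, 360 and 325 in WT VMs. All KO PC libraries were thus below all WT PC libraries, and all KO VM libraries were above all WT VM libraries. No overlap in both cell types with opposite directions, in either orientation, was found for 0.322% of all genes tested in both. The log2 fold change was -0.50 (SE 0.30, unadjusted p = 0.132 in edgeR's test) in PCs, -0.11 without replicate 2 of WT PCs (unadjusted p = 0.578), and 0.37 (SE 0.16, unadjusted p = 0.0288) in VMs. The difference between them was -0.88 (SE 0.35, unadjusted p = 0.0237, adjusted p = 0.999 in the edgeR quasi-likelihood test after Benjamini-Hochberg correction), and -0.48 without replicate 2 of WT PCs (unadjusted p = 0.0503). Its exons overlap those of *Nkapd1* on the other strand, which had up to 121 counts in a library.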

How the results depend on the processing

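No difference of a named member at an unadjusted p under 0.05 changed direction under the alternatives run. In PCs the number of members past the adjustment, 0 in edgeR's test, was 2 with DESeq2, 3 without a filter on low counts, 2 with all 12 libraries in the fit, and 0 to 1 when single libraries were left out. At an unadjusted p under 0.05 it was 5, and 9 without the filter, 11 with all 12 libraries and 3 to 10 with a library left out, 3 without KO PC replicate 1, 10 without WT PC replicate 1 and 8 without WT PC replicate 2. In VMs the 2 past the adjustment became 1 with voom, 6 without the filter, 0 with all 12 libraries (where *Plet1os* and *Tmprss13* both had an adjusted p of 0.0705) and 1 to 4 with a library left out, 1 without KO VM replicate 2 and 4 without WT VM replicate 1. Averaged over PCs and VMs they were 4 with DESeq2 and 4 without the filter, and 2 to 3 with a library left out, while the 9 at an unadjusted p under 0.05 ranged from 5 (without WT VM replicate 1) to 14 (without WT PC replicate 3). For the difference between cell types the 4 at an unadjusted p under 0.05 became 7 without the filter, 2 without mitochondrial genes and 1 to 11 with a library left out. That number was 11 without WT PC replicate 3, 9 without WT PC replicate 1, 2 without WT PC replicate 2, KO VM replicate 1 or WT VM replicate 1, and 1 without KO PC replicate 1 or 2, KO VM replicate 3 or WT VM replicate 2 or 3. With a membership cut of 5 CPM, 0% of members had an unadjusted p under 0.05 in PCs, against 5.38%, and 2.22% in the average, against 9.68%. The causes were not tested. For none of the alternatives in this section is the share of all genes called set beside the count of members. A higher or lower count is thus not read as a result about the members.

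A replicate block on the numbers in the titles gave 1 member past the adjustment in PCs, *Plet1os*, 3 in VMs, with *Dixdc1* the third, and 2 in the average. Libraries of equal number were correlated across 8100 genes, after centring each group. The correlations were -0.0073, 0.040 and 0.099 between KO and WT PCs and -0.075, -0.035 and 0.055 between KO and WT VMs. Libraries of unequal number were not compared, so whether the numbers pair the samples was not tested. The WT source names carry the numbers 1, 3 and 4 where the titles have 1, 2 and 3. The block and the correlations between KO and WT may thus match the wrong libraries. Between PCs and VMs of one genotype and number the correlations were 0.207, 0.081 and 0.150 in WT and -0.0096, 0.121 and 0.019 in KO, above 0 for each WT number, whereas the average took all libraries as independent. Few counts limit *Tmprss13*, *Plet1os*, *Pts* and *Dixdc1*.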
